A study of Mus musculus with 9 samples.

Results

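Open chromatin at 8 genes that set the pace of the cell cycle, Myc, Ccnd1, Ccnd2, Ccnd3, Cdk6, Cdkn1a, Cdkn1b and Cdkn2c, was compared between 3 populations of mouse peritoneal macrophages. A region was counted for a gene when it lay in the gene body or within 10 kb on either side, by RefSeq positions on GRCm38. All 8 genes were found among 21631 protein-coding genes, and their windows held 43 of the 36843 regions in the data. No region fell in the windows of more than 1 of the 8.

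The measurements were ATAC-seq, in which the Tn5 transposase cuts and tags DNA in accessible chromatin, on sorted cells of 9 samples in 3 groups of 3. Monocyte-derived macrophages were collected on day 4 after 2 ml of thioglycollate, an irritant that recruits monocytes to the peritoneum. Tissue-converted macrophages came from mice that received 2 ml of thioglycollate and a diet with tamoxifen for 8 weeks. The labels name no group treatment for the mice that gave tissue-resident macrophages. Every mouse, in all 3 groups, was given IL-4 complexes (5 µg of IL-4 with 25 µg of anti-IL-4) on alternate days, starting 4 days ahead of harvest; IL-4 drives alternative activation of macrophages. All were Cx3cr1CreERT2-IRES-EYFP/+ Rosa26-stopfl-tdTomato/+, so that tamoxifen switches on tdTomato in cells in which the Cx3cr1 promoter is active at that time. The gates of the sort and the ages of the mice are not stated in the labels. Origin and treatment differ together between the groups and cannot be told apart.

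Each group has 1 merged peak list, with 33694 monocyte-derived, 15552 converted and 24348 resident peaks. There is thus no spread between replicates, no test between groups, and no known depth, so a missing call may be a closed site or one below detection. Each population was measured in bulk, so a site open in fewer cells and a site less open in every cell cannot be told apart. Intervals below are 95% Wilson intervals and cover counting error over regions only. All 10 of 10 peritoneal macrophage marker genes had a region in the resident list and 8 in the monocyte-derived list, which had none at Icam2 and Timd4. Only 3 of 10 (Csf1r, Cd68 and Cebpb) had one in the converted list. That list also had none at Icam2 and Timd4, and none at Adgre1, Itgam, Spi1, Mertk or Fcgr1. Markers of other cells had few regions: Ms4a1 and Pax5 of B cells had none in any list, nor did any of 4 mast cell genes. Cd79a, also of B cells, had 2, 2 and 1 regions in monocyte-derived, converted and resident cells, and Cd79b 1, 0 and 0. T cell markers had a region at 2 of 5 genes in the monocyte-derived list (Cd3d and Cd3g) and at 0 in the other lists. Neutrophil markers had one at 1 of 5 genes in the monocyte-derived, 1 in the converted and 2 in the resident list, and mesothelial and stromal markers at 1, 0 and 1 of 5. The part of other cells in the results was not tested.

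Entry into the cell cycle is driven by growth factor signals that raise MYC, a transcription factor of growth genes, and the D-type cyclins, which activate the kinases CDK4 and CDK6 to phosphorylate the retinoblastoma protein and release E2F factors. CDK inhibitors oppose this step. The products of Cdkn1a (p21) and Cdkn1b (p27) bind cyclin-CDK complexes broadly, and that of Cdkn2c (p18) binds CDK4 and CDK6. Most tissue macrophages can divide in place, and cells newly derived from blood monocytes join them by recruitment. IL-4, which all 3 groups received, is known to make peritoneal macrophages proliferate.

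The 8 genes had most of their regions in the monocyte-derived list. Of their 43 regions, 40 were called there (93.0%, 81.4 to 97.6%), 20 in the resident list (46.5%, 32.5 to 61.1%) and 10 in the converted list (23.3%, 13.2 to 37.7%). Over all 29675 regions in the windows of protein-coding genes these shares were 86.7%, 57.1% and 37.6%. All 3 lists shared 9 of the 43 regions, against 30.6% of regions in all gene windows, and 22 were monocyte-derived only, against 37.7%. The resident list alone held 3 (10.0% in all gene windows), and the converted list alone held 0 (1.53%). The order of the lists was thus that of all genes, and the intervals of the 3 shares for the 8 genes include the values for all gene windows.

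**Figure D1:**
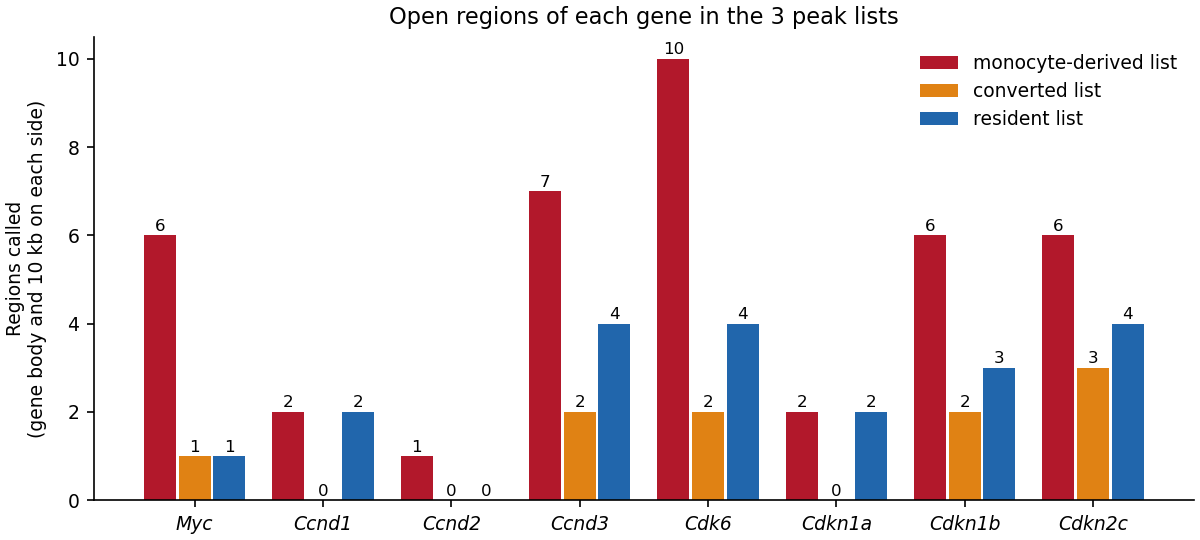
Number of regions called in each gene's window of 10 kb around the gene body (vertical axis) for each of the 8 genes (horizontal axis), 1 bar per merged list, with no error because each group has 1 list. The monocyte-derived bar is the highest or ties for the highest at every gene, from 1 at Ccnd2 to 10 at Cdk6, and the converted bar is at most 3.

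Myc had 6 regions in the monocyte-derived list, 1 in the converted list and 1 in the resident list. The gene lies at chr15:61985341-61990361. Its 5 monocyte-derived-only regions lay around the lower-coordinate end, from 1.80 kb outside to 1.67 kb inside it. They were chr15:61983464-61983538 (1.80 kb outside the gene, authors' p-value 3.02e-06), chr15:61985114-61985238 (0.10 kb outside, 6.73e-06), chr15:61985389-61985513 and chr15:61985539-61985663 (both within 0.20 kb inside, 4.13e-06 and 4.52e-06), and chr15:61987014-61987263 (1.67 kb inside, 7.44e-09). Neither tissue list had a call in the gene body or within 1 kb of a gene end. The last region, chr15:61999614-61999938, 9.25 kb beyond the upper-coordinate end, was in all 3 lists, with p-values of 6.73e-06, 5.61e-06 and 8.43e-06 in the monocyte-derived, converted and resident list. No other RefSeq gene overlaps any of the 6 regions, and RefSeq gives no strand for Myc in the tables used, so its ends are named by coordinate.

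The difference at Myc was 5 regions in each comparison with the monocyte-derived list, and 0 between the tissue lists. With peaks within 200 bp merged, Myc had 4 monocyte-derived, 1 converted and 1 resident regions, and both differences from monocyte-derived were -3. Gene bodies alone also gave -3 for both. Counting single peaks, or joining peaks under a stricter overlap rule, gave -7 for both. By nearest gene the differences were -11 for resident and -9 for converted. The shares of genes that follow use the main counts. At least 5 fewer regions were found in 2.89% of genes for resident and in 5.51% for converted against monocyte-derived, and in 0.724% for converted against resident. The 3 main counts of Myc (6, 1 and 1) were found at 23 of 21630 other protein-coding genes. This was not particular to Myc: the number was 3 for Cdk6, 19 for Ccnd3, 37 for Cdkn1b and 40 for Cdkn2c. It was higher for genes with few regions, such as 198 for Ccnd1 and 1036 for Ccnd2. The monocyte-derived-only calls of Myc stood at percentiles from 20.4 to 79.5 of their list, where 100 is the smallest p-value. When each list was cut to its 15552 peaks of smallest p-value, Myc had 1 monocyte-derived, 1 converted and 0 resident regions, and at p at most 1e-10 it had none in any list. Many peaks tie in p-value, so the handling of ties can decide which peaks near such a cut are kept.

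Regions in and around the D-type cyclin genes were few at Ccnd1 and Ccnd2 and more numerous at Ccnd3, which has the longest window of these genes. The windows span 29.9 kb at Ccnd1, 47.0 kb at Ccnd2 and 114.6 kb at Ccnd3. Per 10 kb, Ccnd1 had 0.67 monocyte-derived, 0.00 converted and 0.67 resident regions, and Ccnd3 had 0.61, 0.17 and 0.35. Ccnd2 had 0.21, 0.00 and 0.00. Ccnd1 (chr7:144929931-144939831) had 2 monocyte-derived, 0 converted and 2 resident regions. The 1 inside the gene, chr7:144937614-144937713, was monocyte-derived only. Beyond the upper-coordinate end lay chr7:144941339-144941413, resident only, and chr7:144941589-144941713, shared by the monocyte-derived and resident lists, with 175 bp between them. The resident p-values were 8.27e-06 and 5.63e-06, and no converted call was made in the window. Ccnd2 (chr6:127125162-127152188) had a single region in 47.0 kb, chr6:127150964-127151038, called in the monocyte-derived list alone at p 7.89e-06. This 75 bp region, 1.15 kb inside the upper-coordinate end, also overlaps the gene 9330179D12Rik. With this 1 weak call Ccnd2 had the fewest regions of the 8 genes.

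Ccnd3 (chr17:47505051-47599689) had 7 monocyte-derived, 2 converted and 4 resident regions. RefSeq gives it an upstream start and an internal start near the other end of the gene, and the lists differed at them. At the upstream start, 112 of the 300 bases of the promoter window (250 before to 50 after the start) lay in a monocyte-derived peak (chr17:47504989-47505163, p 6.73e-06), and 0 in a peak of the other lists. At the internal start, region chr17:47593264-47593563 was called in all 3 lists, with p-values of 3.20e-06 in monocyte-derived, 1.03e-10 in converted and 3.36e-06 in resident cells. The converted p-value lay at the 79.5 percentile of its list and the resident one at the 79.6 percentile. The bases before each start that the peaks covered are shown because the 2 starts were called in different lists. They come from RefSeq (GRCm38.p6), read 5′ to 3′, with capitals marking a GC box (GGGCGG or its reverse complement) or a CCAAT box.
Ccnd3, chr17:47504989-47505050, plus strand: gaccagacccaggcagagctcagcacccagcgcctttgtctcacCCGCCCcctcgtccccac
Ccnd3, chr17:47593264-47593466, plus strand: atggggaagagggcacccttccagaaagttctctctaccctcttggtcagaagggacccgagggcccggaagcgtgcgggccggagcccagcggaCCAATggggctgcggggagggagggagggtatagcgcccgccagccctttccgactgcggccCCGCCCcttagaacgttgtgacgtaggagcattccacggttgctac

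Between the Ccnd3 starts, chr17:47507989-47508163 was shared by monocyte-derived and resident cells, and chr17:47511139-47511388 by monocyte-derived and converted cells, the only region of the 43 with that pattern. Beyond the internal start, chr17:47595589-47595738 was again monocyte-derived and resident. In the resident list its p-value of 3.39e-06 stood at the 74.4 percentile, while in the monocyte-derived list its 1.01e-05 stood at the 1.88 percentile. The 2 regions outside the lower-coordinate end, chr17:47501939-47502113 and chr17:47502189-47502413, lie in the neighbouring gene Taf8. At equal list lengths Ccnd3 had 1 monocyte-derived, 2 converted and 3 resident regions, so the direction of both comparisons with monocyte-derived cells turned.

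Cdk6 (chr5:3341004-3531008), which encodes the kinase partner of the D-type cyclins, had 10 monocyte-derived, 2 converted and 4 resident regions, all inside its 190.00 kb. Per 10 kb of window this was 0.48, 0.10 and 0.19 regions, a lower density than at Myc, with 2.40, 0.40 and 0.40. Its only promoter window, chr5:3343643-3343942, is that of a RefSeq start inside the gene, and no window was given for the lower-coordinate end. That window was overlapped by no peak of any list. The region nearest to it, chr5:3344439-3344588, lay 497 bp away in the monocyte-derived and resident lists. All 3 lists shared chr5:3494414-3494663 and chr5:3502639-3502938, which lie 36.34 kb and 28.07 kb from the upper-coordinate end. At the former, monocyte-derived cells were at the p-value floor of 1e-12, converted cells at 3.77e-07 and resident cells at 4.69e-06. At the latter, the p-value was 5.05e-06 in monocyte-derived, 3.69e-07 in converted and 1.31e-05 in resident cells. Of the other regions 6 were monocyte-derived only and chr5:3491289-3491463 was monocyte-derived and resident. At equal list lengths Cdk6 had 3, 2 and 1 regions in the monocyte-derived, converted and resident lists.

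**Figure D2:**
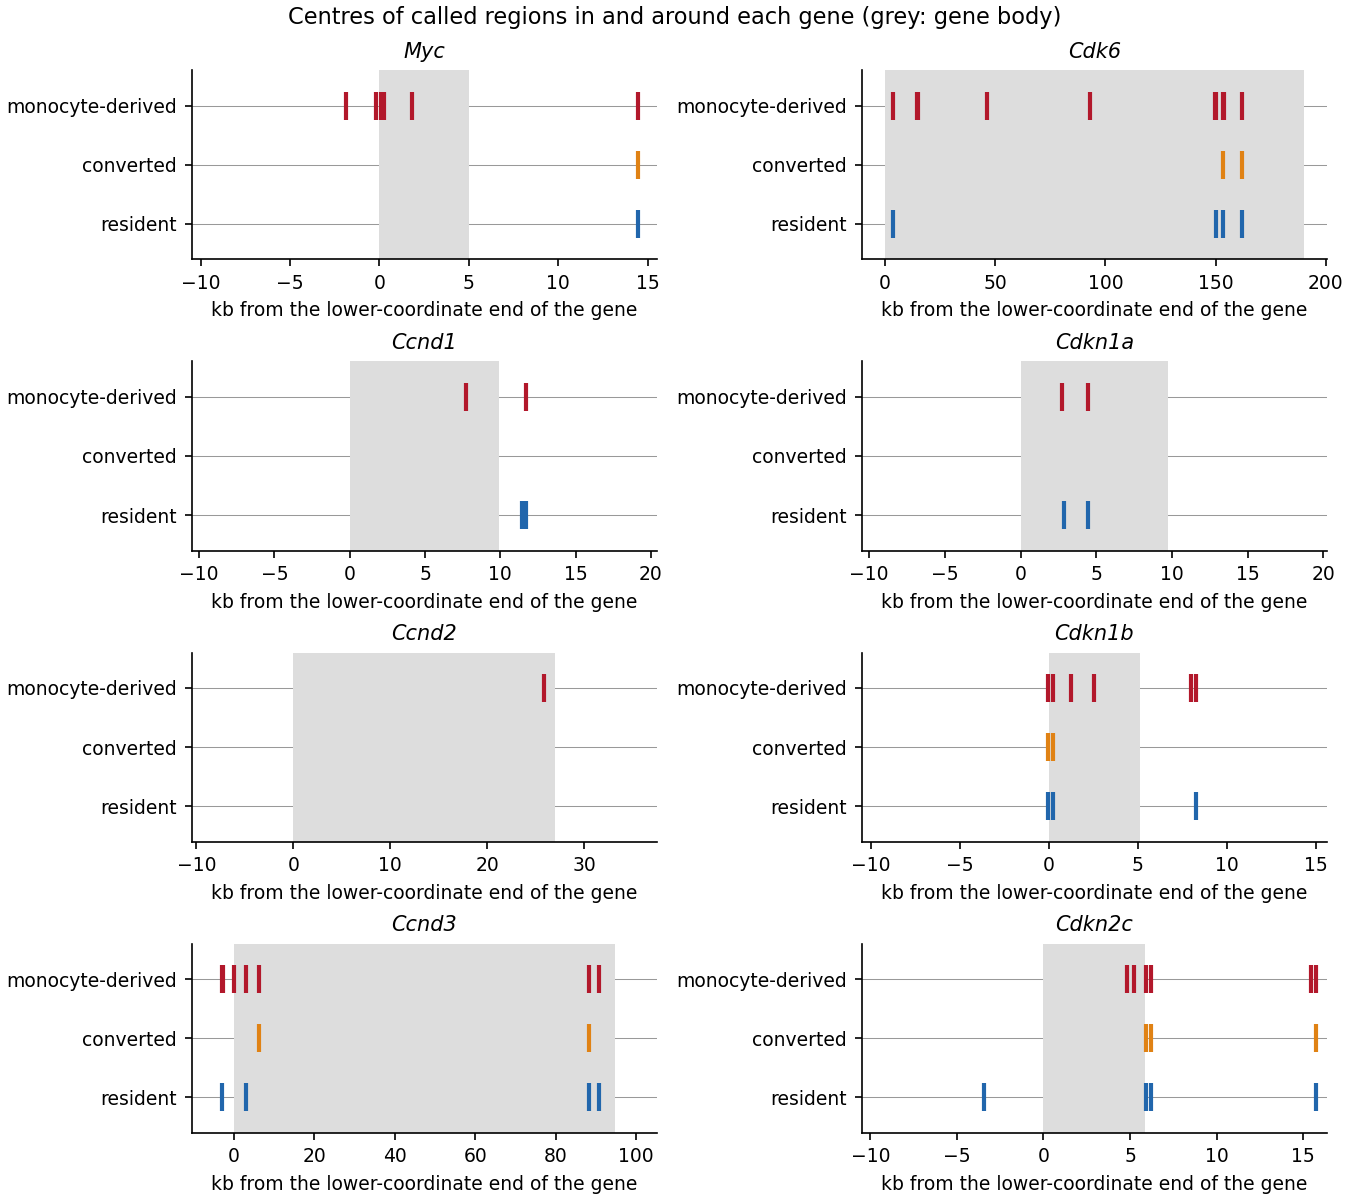
Positions of called regions along each gene, as the distance in kb of the region's centre from the lower-coordinate end of the gene (horizontal axis), with 1 line per list; grey marks the gene body, and marks that touch are separate regions. Calls at the lower-coordinate end of Myc are on the monocyte-derived line only, whereas the regions across an end of Cdkn1b and of Cdkn2c are on all 3 lines.

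Cdkn1b and Cdkn2c each had a region across their upstream start that was called in all 3 lists, and Cdkn1a had no converted call. Together the 3 inhibitor genes had 14 monocyte-derived, 5 converted and 9 resident calls over 16 regions, and Myc, the cyclins and Cdk6 had 26, 5 and 11 over 27. The resident share was 56.2% (33.2 to 76.9%) for inhibitors and 40.7% (24.5 to 59.3%) for the other genes, and the converted share 31.2% (14.2 to 55.6%) and 18.5% (8.18 to 36.7%). These intervals overlap widely.

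Cdkn1b (chr6:134920401-134925525) had 6 monocyte-derived, 2 converted and 3 resident regions. Its start region, chr6:134920189-134920488, and the next, chr6:134920514-134920738, 25 bp on, were in all 3 lists. At the start the p-value was at the floor of 1e-12 in monocyte-derived and converted cells and 4.69e-06 in resident cells. Outside the upper-coordinate end, chr6:134928464-134928888 was shared by monocyte-derived (1.51e-06) and resident cells (3.39e-06), at 2.94 kb. The other 3 regions were monocyte-derived only. At equal list lengths Cdkn1b kept 3 monocyte-derived, 2 converted and 3 resident regions.

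Cdkn2c (chr4:109660876-109666756, minus strand) had 6, 3 and 4 regions in the same order of lists. Around its upstream start, chr4:109666664-109666963 was called with p-values of 1e-12, 1.03e-10 and 1e-12, and this was the only region of the 8 genes at the floor in the resident list. A neighbour at 25 bp, chr4:109666989-109667163, was also in all 3 lists with weaker p-values of 6.73e-06, 4.87e-06 and 1.31e-05. The third shared region, chr4:109676439-109676788, lies 9.68 kb from the gene in Faf1, the adjoining gene. Inside the gene 2 regions were monocyte-derived only, and the promoter window of the internal start, chr4:109665323-109665622, held no peak of any list. On the other side of the gene, chr4:109657364-109657463 was resident only (1.18e-05) and overlaps 9630013D21Rik.

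Cdkn1a (chr17:29090979-29100722), the p53 target gene, had 2 monocyte-derived, 0 converted and 2 resident regions. The window of its upstream start, chr17:29090729-29091028, held no peak. At its internal start, window chr17:29093519-29093818, the monocyte-derived peak chr17:29093689-29093788 (p 7.89e-06) and the resident peak chr17:29093789-29093863 (8.27e-06) abut with 0 bp between them. They therefore count as 2 regions, 1 per list, though both overlap the same promoter window. Region chr17:29095214-29095613, 400 bp wide, was called in both of these lists (3.37e-06 and 3.39e-06). The nearest converted peak to the upstream window was 58116 bp away.

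The bases of inhibitor promoters under peaks are printed because these starts include both the sites called in every list and the site split between lists. For Cdkn1b, Cdkn2c and the monocyte-derived peak of Cdkn1a the part before the start is given, and for the resident peak of Cdkn1a the 30 bases after the start that the promoter window holds. Source and capitals are as for Ccnd3.
Cdkn1b, chr6:134920189-134920400, plus strand: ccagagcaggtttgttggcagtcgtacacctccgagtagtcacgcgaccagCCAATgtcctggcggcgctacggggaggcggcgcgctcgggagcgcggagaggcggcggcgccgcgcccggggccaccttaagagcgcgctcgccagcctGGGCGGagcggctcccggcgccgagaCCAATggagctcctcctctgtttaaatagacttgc
Cdkn2c, chr4:109666757-109666963, minus strand: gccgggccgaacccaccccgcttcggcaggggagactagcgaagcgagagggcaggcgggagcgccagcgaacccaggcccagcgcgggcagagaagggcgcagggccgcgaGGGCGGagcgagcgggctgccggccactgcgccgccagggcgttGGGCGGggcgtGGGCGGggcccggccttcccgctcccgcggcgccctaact
Cdkn1a, chr17:29093689-29093768, plus strand: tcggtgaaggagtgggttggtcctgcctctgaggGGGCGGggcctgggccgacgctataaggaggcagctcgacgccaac
Cdkn1a, chr17:29093789-29093818, plus strand: agccgccgcggtgtcagagtctaggggaat

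RefSeq promoter windows matched 5 of the 8 genes, with 8 windows. Myc, Ccnd1 and Ccnd2 had no entry. Of the 8 windows, 5 were overlapped by a monocyte-derived peak (39.5% of 21045 windows of protein-coding genes), 3 by a converted peak (26.0%) and 4 by a resident peak (32.6%). The 3 in every list (24.1%) were those at the Cdkn1b start, the upstream Cdkn2c start and the internal Ccnd3 start. A GC box, GGGCGG on either strand, which SP1-type factors bind, was found in 5 of the 8 windows and in 35.7% of the 32851 promoters of the table. These 5 were the same windows that a peak of some list overlapped. Whether promoters of all genes with a peak hold a GC box more often than those without was not tested. A CCAAT box, CCAAT on either strand, was in 3 of 8 windows and 37.4% of promoters. These motifs were chosen after the lists had been examined. The MYC and MAX E-box CACGTG (7.15% of promoters) was in the Cdk6 window and the internal Cdkn2c window, neither of which had a peak. No window of the 8 matched TGANTCA of AP-1 (7.81% of promoters), TTTGGCGC (0.514%) or TTTCCCGC (1.07%) of E2F, GAGGAAGT of PU.1 (3.20%), the STAT6 motif (6.95%), the IRF motif (3.44%) or the long palindromic MAF motif (0.00609%). All were searched on both strands, and the MAF motif contains the AP-1 motif.

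In the comparison of resident with monocyte-derived cells, 6 of the 8 genes had fewer resident regions, 0 had more and 2 (Ccnd1 and Cdkn1a) were equal. Among all 13680 genes with a region in either list, 55.4% had fewer and 12.0% more. The median difference was -2.5 regions for the 8 genes and -1 over all genes. Such differences can be larger at genes with more regions. The resident share of regions, 46.5% (32.5 to 61.1%) for the 8 genes, has an interval that includes the 57.1% of all gene windows. The differences were -6 at Cdk6, -5 at Myc, -3 at Ccnd3 and Cdkn1b, -2 at Cdkn2c and -1 at Ccnd2. With lists of equal length 3 genes had fewer (36.6% of genes) and 3 more (29.9%). Myc, Cdk6 and Cdkn2c still had fewer resident regions, Ccnd3 turned from -3 to 2, Ccnd1 and Cdkn1a went from 0 to 1, and Ccnd2 and Cdkn1b went to 0.

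For converted against monocyte-derived cells, all 8 genes had fewer converted regions and 0 had more, where 74.1% of 13219 genes had fewer and 2.97% more. The differences ran from -8 at Cdk6 and -5 at Myc and Ccnd3 through -4 at Cdkn1b and -3 at Cdkn2c to -2 at Ccnd1 and Cdkn1a and -1 at Ccnd2. At equal list lengths 2 genes had fewer (36.9% of genes) and 1 more (25.4%). Converted against resident, 6 genes had fewer converted regions (52.5% of 12024 genes), 0 had more (7.99%), and Myc and Ccnd2 were equal. The sum over the 8 genes was 10 converted against 20 resident regions. The resident list holds 22.5% of peaks with p-values above 1e-05, and the converted list 0. With p at most 1e-05 in every list, the sum was 10 converted against 16 resident regions. Under that limit 4 genes had fewer converted regions (40.4% of genes), 1 had more (20.8%) and 3 were equal. These comparisons share the same 3 lists and are not independent. At equal list lengths 4 genes had fewer converted than resident regions (32.5% of genes) and 3 more (28.6%), and the 8 genes together had 11 monocyte-derived, 10 converted and 11 resident regions.

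**Figure D3:**
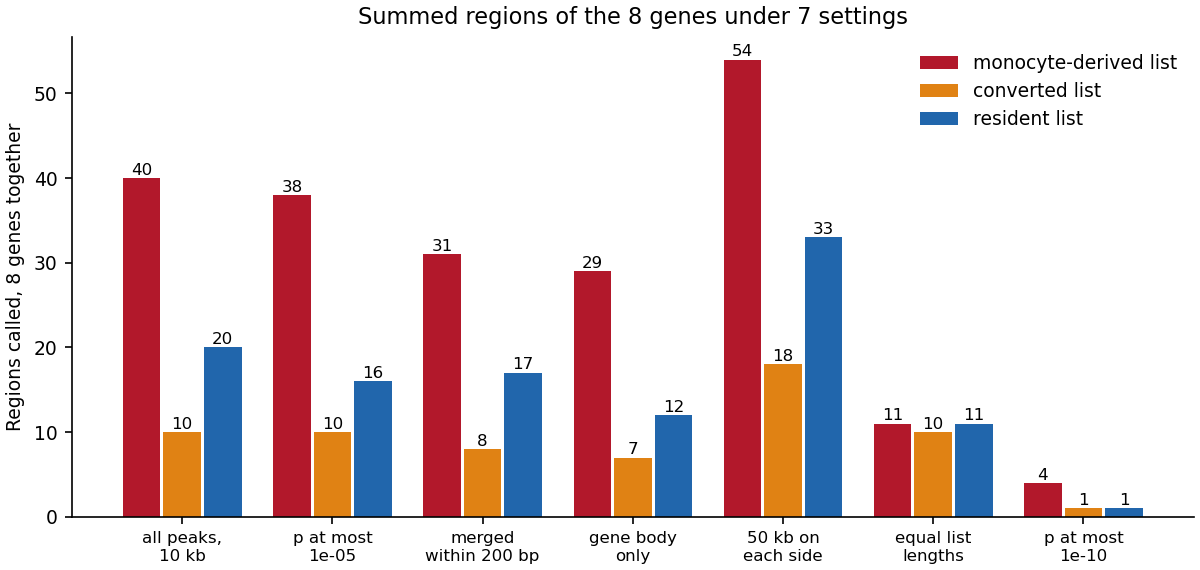
Regions of the 8 genes together (vertical axis, count) in each list under 7 settings (horizontal axis). The monocyte-derived bar is the highest in each setting shown but equal list lengths, where the 3 bars stand at 11, 10 and 11.

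Monocyte-derived calls in regions shared by all 3 lists had a higher median rank in their list than calls in monocyte-derived-only regions. The median percentile was 65.1 for the 9 shared regions and 33.7 for the 22 monocyte-derived-only regions. Over all gene windows it was 90.7 for 9072 shared regions and 35.8 for 11191 monocyte-derived-only regions. The strongest monocyte-derived-only calls of the 8 genes, both at 7.44e-09, were the region 1.67 kb inside Myc and chr4:109676239-109676363, 9.48 kb from Cdkn2c. The p-values take few distinct values, 46 in the monocyte-derived list, 24 in the converted and 20 in the resident list, so many peaks tie in rank.

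**Figure D4:**
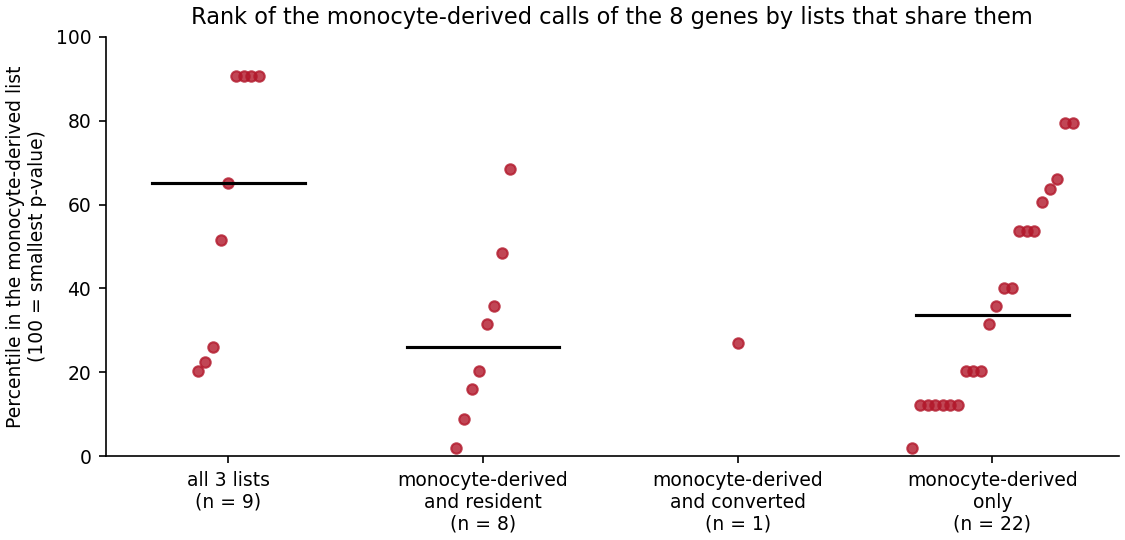
Percentile of each monocyte-derived call of the 8 genes within the monocyte-derived list (vertical axis, 100 for the smallest p-value), grouped by which lists share the region; points are regions and lines are medians. The 4 calls at the p-value floor are all in regions of all 3 lists, and monocyte-derived-only calls range from 1.88 to 79.5.

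The regions of the 8 genes were more often away from gene ends than those of all gene windows, although the interval of the share includes the value for all gene windows. Of the 43 regions 14 (32.6%, 20.5 to 47.5%) were at most 1 kb from the nearest end of any coding gene, against 46.0% of those in all gene windows. Of these 14, 5 were in all 3 lists (35.7%, 16.3 to 61.2%) and 8 were monocyte-derived only (57.1%, 32.6 to 78.6%), where all gene windows had 44.2% and 26.0%. The 8 include 3 at Myc, 3 at Cdkn2c and 2 at Ccnd3. Not all were at an end of the member gene itself. Region chr4:109676239-109676363, 9.48 kb from Cdkn2c, and chr17:47502189-47502413, in Taf8, were near an end of another gene only. The 3 at Myc lie 150 and 25 bp apart, so they are not well separated sites. Of 35 gaps between neighbouring regions of the same member gene, 11 were at most 200 bp. Of the 29 regions farther from gene ends, 14 were in the resident list (48.3%) and 5 in the converted list (17.2%), against 46.7% and 26.8% over all gene windows. Ends here are the outer limits of genes, so regions at internal starts count among the 29. Such regions are chr17:47593264-47593563 of Ccnd3 and chr17:29093689-29093788 and chr17:29093789-29093863 of Cdkn1a, which overlap promoter windows of their genes.

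Other cell cycle genes, 86 in 7 lists, had larger shares of their regions in the tissue lists. Their windows held 257 regions, of which 89.5% were called in monocyte-derived, 49.8% (43.7 to 55.9%) in converted and 66.9% (61.0 to 72.4%) in resident cells, and 65.4% lay near a gene end. Against monocyte-derived, 37 of the 83 genes with a region in either list had fewer resident regions and 7 more (44.6% and 8.43%), and 57 had fewer converted regions and 7 more (68.7% and 8.43%). Against resident, 41 of 80 genes had fewer converted regions and 9 more (51.2% and 11.2%).

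The MYC and MAX network holds MYC relatives, MAX and its other partners, and MLX with its partners. Of its 41 regions 48.8% (34.3 to 63.5%) were resident and 36.6% (23.6 to 51.9%) converted, and these intervals include the 57.1% and 37.6% of all gene windows. Against monocyte-derived, 8 of its 12 genes had fewer resident regions and 1 more, and 8 had fewer converted regions and 2 more. Mxi1, an antagonist of MYC, had 7 monocyte-derived, 1 converted and 3 resident regions, Max 4, 1 and 2, and Mga 4, 0 and 2. Mnt, another MAX partner, had 8, 5 and 6. Mxd3, also of the MAX partners that oppose MYC, had 3, 1 and 0, and Mlx, a relative of MAX, 3, 0 and 1. Mycn had 0 monocyte-derived and 1 region in each tissue list, and Mycl had none.

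Genes of DNA replication and mitosis had 38 monocyte-derived, 25 converted and 31 resident calls over 41 regions. Of these 20 genes, 5 had fewer resident regions than monocyte-derived ones and 0 more, and 11 had fewer converted regions and 1 more. Pcna, the sliding clamp of DNA polymerase, had 4 regions in each list, and Mki67, Cdk1 and Plk1 had 1 in each. Top2a, Ccnb2, Bub1 and Birc5 each had 1 monocyte-derived, 0 converted and 1 resident region. Mcm7, of the replicative helicase, had 5, 1 and 2. Of 13 RB and E2F genes 3 had fewer resident regions and 1 more, and 8 had fewer converted regions and 0 more. E2f3 had 6, 3 and 3, E2f5 4, 3 and 3, E2f8 had 3 in each list, and E2f6 and Rbl1 had none. The remaining G1 and S phase cyclins and kinases (9 genes) had 23, 13 and 16 calls, with 5 genes lower and 0 higher in resident cells and 6 lower and 0 higher in converted cells. Among them were Cdk4, the close relative of Cdk6, at 4, 1 and 2, Ccne2, a cyclin of CDK2, at 4, 2 and 3, and Cdk2 at 2 in each list.

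The other CDK inhibitor genes departed from this order, though their regions were few. They had 6 monocyte-derived, 6 converted and 7 resident calls over 10 regions, with 1 gene of 4 lower and 1 higher in resident cells and 2 lower and 2 higher in converted cells. Cdkn2a, which encodes p16 and ARF, had 1 monocyte-derived, 2 converted and 3 resident regions, and its neighbour Cdkn2b had 1, 2 and 1. Cdkn2d, the gene of p19, had 3, 2 and 2, and Cdkn1c, that of p57, 1, 0 and 1. Of 13 p53 response and antiproliferative genes 6 had fewer resident regions and 2 more, and 9 had fewer converted regions and 2 more. Among them Btg2, an antiproliferative gene, had 2, 4 and 4 and Ccng1 1, 1 and 3, while Btg1 had 3, 4 and 3, Plk3 5, 2 and 4, Gadd45b 4, 0 and 0, and Trp53, the p53 gene, 3, 0 and 0. Of 15 regulators of macrophage proliferation, 9 had fewer resident regions and 2 more, and 13 had fewer converted regions and 0 more. Klf4, a factor of the macrophage self-renewal network, had 4, 1 and 2. Of the IL-4 pathway, the receptor gene Il4ra had 6, 3 and 5 and the signal transducer Stat6 4, 2 and 6. The growth kinase gene Mtor had 5, 2 and 1, and Gsk3b, whose kinase marks MYC and cyclin D1 for degradation, 7, 2 and 4. Gsk3b had the same 3 counts as Ccnd3, and Akt1 with 7, 3 and 4 was 1 count away. E2f2 had the counts of Ccnd2 (1, 0 and 0). E2f3 was 1 count from Cdkn1b and, like Akt1 and Il4ra, from Cdkn2c. With counts this low many genes tie: Birc5 (1, 0 and 1) was among several genes 1 count from Ccnd2, and Cdk7 (2, 0 and 1) and Csf1r (2, 1 and 2) were among several 1 count from Ccnd1 and Cdkn1a, named only for coming first in the alphabet. No gene of the 7 lists came within 1 count of Myc or Cdk6 summed over the 3 lists.

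**Figure D5:**
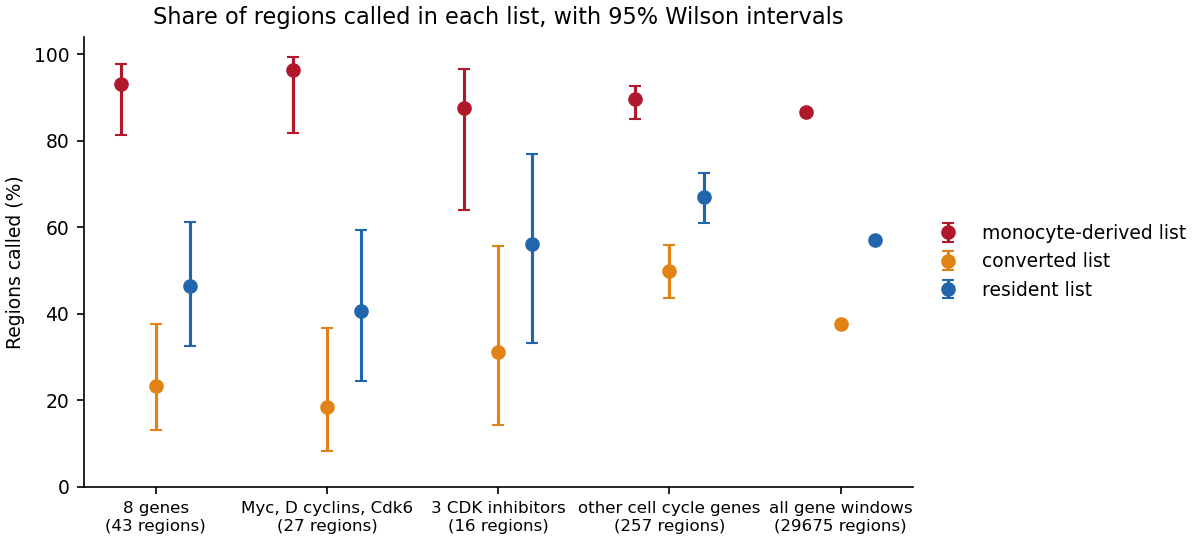
Share of regions called in each list (vertical axis, percent) for the 8 genes, their 2 role groups, 86 other cell cycle genes and all gene windows, with the number of regions under each name; points are shares and bars are 95% Wilson intervals, which cover counting error over regions only. The converted share is 23.3% for the 8 genes, 49.8% for other cell cycle genes and 37.6% for all gene windows.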

How the data were processed

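ATAC-seq libraries of 9 sorted samples were processed by the authors with Bowtie2 2.2.9 on mm10, that is GRCm38, as the submitters' processing notes name them. The deposited files are 3 BED lists, 1 merged list per group per the labels, with positions and a p-value for each peak from the authors' peak caller. These p-values have a floor of 1e-12, served here to rank or filter the peaks of a single list, and exceed the 1e-05 in the list names for 22.5% of resident, 3.76% of monocyte-derived and 0 converted peaks. Not given in the sources used here were the peak caller, transposase shift, duplicate handling and merging, all of which can alter the peaks listed. The lists hold no counts, so depth is unknown.

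Overlapping peaks (1 bp or more) from any of the 3 lists were joined into regions, and a region counts as called in each list with a peak in it. Gene positions came from RefSeq GRCm38.p6, without exons, and promoter sequences and strand from its promoter table. Region counts per gene were compared between lists with no test. The text names the 8 genes, genes of 7 lists with a difference of at least 3 regions, the 2 genes with most regions in each list, up to 2 genes per member at most 1 count from it (ties taken alphabetically), and genes overlapped by a region. Mki67, Cdk1, Plk1, Top2a, Ccnb2, Bub1, E2f6, E2f8, Rbl1, Cdk2, Mycn, Mycl, Cdkn1c, Cdkn2b, Btg2 and Ccng1 were chosen after their values were seen. So was Il4ra, for its likeness to Cdkn2c. The members and lists were chosen with earlier results of these data known. Alternatives covered list length, p-value, overlap, window and counting unit. Merging and assignment recovered 8000 of 8000 simulated regions and the counts of 4230 of 4230 genes. Python 3.11.15, numpy 2.4.6, pandas 2.3.3, scipy 1.17.1 and matplotlib 3.10.9 were used.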

Additional observations from a re-analysis of the deposited data

How the results depend on the processing

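The 8 genes had 40 monocyte-derived, 10 converted and 20 resident regions. With equal list lengths the monocyte-derived and resident counts became 11 and 11, since fewer of their peaks enter, and at p at most 1e-10 the 3 counts were 4, 1 and 1. Counts at equal list lengths can also depend on how tied p-values at the cut are handled. Within gene bodies alone the resident count was 12. With 50 kb on each side the converted and resident counts were 18 and 33, and by nearest gene 20 and 33. Under the other settings the 3 counts stayed within 1.5 times. Of 216 differences of single genes under the 9 alternatives, 136 stayed within 1.5 times, 74 moved further and 6 turned. At equal list lengths Ccnd3 turned to 2 (resident minus monocyte-derived) and 1 (converted minus monocyte-derived), and converted minus resident turned to 1 at Cdk6 and 1 at Cdkn2c. The same difference turned to 1 at Cdkn1b with p at most 1e-10 and to 1 at Cdkn2c with p at most 1e-05. The cause was not tested beyond the smaller number of peaks. No paired analysis was possible because the peaks were merged per group and carry no replicate number, which also left no replicate to leave out in turn. Unknown depth limits every missing call.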

Other observations

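Farther from Ccnd1 lay regions that both tissue lists shared and the longest list lacked. In the span from 10 to 50 kb on either side, Ccnd1 had 2 monocyte-derived, 4 converted and 4 resident regions, where its nearer window had no converted call. The converted and resident lists, and not the monocyte-derived one, called chr7:144971064-144971313 and chr7:144971389-144971688, 31.2 and 31.6 kb beyond the upper-coordinate end and outside annotated genes, with p-values of 1.69e-06 in converted and 1.05e-05 and 5.06e-06 in resident cells. Regions of this kind made up 1.78% of those in all gene windows and 2.26% of those over 1 kb from gene ends. These windows reach only 10 kb from a gene, so the shares do not cover sites this far out. Whether the neighbouring pair is 1 open site was not tested. The other 2 regions of the span, on the lower-coordinate side, were in all 3 lists, and 1 of them overlaps LTO1. Cdk6 had in the same span a pair of regions of all 3 lists in Gm36470, chr5:3300789-3301038 and chr5:3301139-3301438, both at the floor of 1e-12 in monocyte-derived cells. Ccnd2 had there a region of all 3 lists in Tigar, a p53-inducible gene, at p 1e-12 in monocyte-derived and resident cells and 1.51e-06 in converted cells. For Cdkn1a this span held 1 region, in the gene of the p53-induced noncoding RNA Trp53cor1, called in the monocyte-derived and resident lists. These regions were picked after the lists had been examined.

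Beyond Myc, the first called region past its 10 kb flank lay 53.5 kb from the gene, in Pvt1 (chr15:62037986-62260215), a noncoding RNA gene that neighbours Myc. Pvt1 held 7 regions, of which 6 were monocyte-derived, 3 converted and 2 resident calls, and 4 were monocyte-derived only. At 66.0 kb, chr15:62056364-62056738 was in all 3 lists (7.44e-09 in monocyte-derived and 1.51e-06 in converted cells). The region directly before it, chr15:62056189-62056363, was called in converted (1.92e-07) and resident cells (1.31e-05) alone. The edges of these 2 regions touch.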
